A study of Mus musculus with 4 samples.

Results

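Expression of 9 genes of the renin-angiotensin system and of corticosteroid signalling was followed in mouse parietal peritoneum. The genes were chosen by name: angiotensinogen (Agt), renin (Ren1), angiotensin-converting enzyme (Ace), the prorenin receptor (Atp6ap2), the angiotensin receptors Agtr1a and Agtr2, the receptor Mas1, the mineralocorticoid receptor (Nr3c2) and the cortisone-activating enzyme Hsd11b1. They are 9 of the 18194 genes named on the arrays and were read by 12 probe sets. RNA came from SAP-BNP-Tg mice, in which the serum amyloid P promoter drives a brain natriuretic peptide (BNP) transgene, and from wild-type (WT) mice, all on a C57BL/6J background. This promoter is known as a promoter of liver cells, and BNP acts as a circulating hormone. The 4 groups were SAP-BNP-Tg mice given chlorhexidine gluconate, SAP-BNP-Tg mice given vehicle, WT mice given chlorhexidine gluconate and WT mice given vehicle. Chlorhexidine, an antiseptic that irritates the peritoneum, was dissolved at 0.1% in 85% PBS with 15% ethanol, and 0.01 mL per gram was injected into the abdominal cavity in 3 doses each week until day 21. Vehicle mice received ethanol and PBS by the same route, and the labels give neither the proportions nor the schedule for them. Each group was measured on 1 Affymetrix array, ages are not in the labels, and neither is the number of mice behind an array, so no difference below has a replicate check.

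Renin releases angiotensin I from angiotensinogen, and the converting enzyme on the surface of endothelial cells turns it into angiotensin II. Angiotensin II acts through the type 1 receptor to constrict vessels, release aldosterone and drive matrix synthesis, whereas the type 2 receptor and Mas1 are known for opposing actions. Aldosterone and glucocorticoids both bind the mineralocorticoid receptor, and the enzyme encoded by Hsd11b1 regenerates active glucocorticoid inside cells. Natriuretic peptides are known to lower the release of renin and aldosterone. Blockers of this system are used in patients on peritoneal dialysis, where the peritoneum can thicken and scar.

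Each probe set had a signal, a detection p-value and a call of Present, Marginal or Absent, and the signals below were scaled to a common mean. Between 50.5% and 55.1% of probe sets were called Present on an array. The array of vehicle-treated WT mice stood apart from the others. It had a mean 18S rRNA signal of 898.5, where the others had 82.8 to 117, and beta-actin probe sets from the 3-prime end read 5.81 times those from the middle, where the others had ratios of 2.23 to 2.84. For the detected genes of the 9, chlorhexidine differences that use this array are therefore also given with the vehicle array of transgenic mice in its place. Such a value mixes treatment with genotype, so the quality of the WT vehicle array and a genotype difference cannot be told apart in it. The tissue label was met by the mesothelial markers, 7 of 7 Present on all 4 arrays, while none of 4 hepatocyte markers was. Skeletal muscle markers were Present on all 4 arrays too, 5 of 5. Their signals summed to 36773 to 44420 on an array, where the 7 mesothelial markers summed to 353 to 637. The samples thus held muscle RNA as well, and the signals below are those of the whole sample. Nppb, which encodes BNP, was Absent on each array. It read 4.04 and 9.04 in transgenic peritoneum (chlorhexidine and vehicle) and 20.1 and 6.91 in WT peritoneum, so the genotype labels were not checked by these data.

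Of the 9 genes, 5 (Ace, Agtr1a, Nr3c2, Atp6ap2 and Hsd11b1) were Present on all 4 arrays, Agt and Agtr2 were Present on some, and Ren1 and Mas1 were Present on none. A gene was called higher or lower by size alone, at a log2 difference of at least 1 (2-fold) with a Present call and sufficient signal on the brighter array. With chlorhexidine, Ace was the 1 gene of the 9 called higher, in transgenic and in WT peritoneum, and none was called lower. Among all 12754 genes Present on at least 1 array, 3.81% were called higher and 1.4% lower in transgenic peritoneum, and 8.22% higher and 4.93% lower in WT peritoneum. A count of 1 of 7 detected genes is too small to be read against these shares. Between the genotypes, Hsd11b1 was called higher in transgenic than in WT peritoneum under chlorhexidine, where 0.784% of all genes were called higher and 0.964% lower. None of the 9 was called between the genotypes under vehicle, where 0.957% of all genes were called higher and 0.502% lower. In peritoneum, which holds many cell types, fewer cells of a type and less RNA per cell cannot be told apart.

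**Figure D1:**
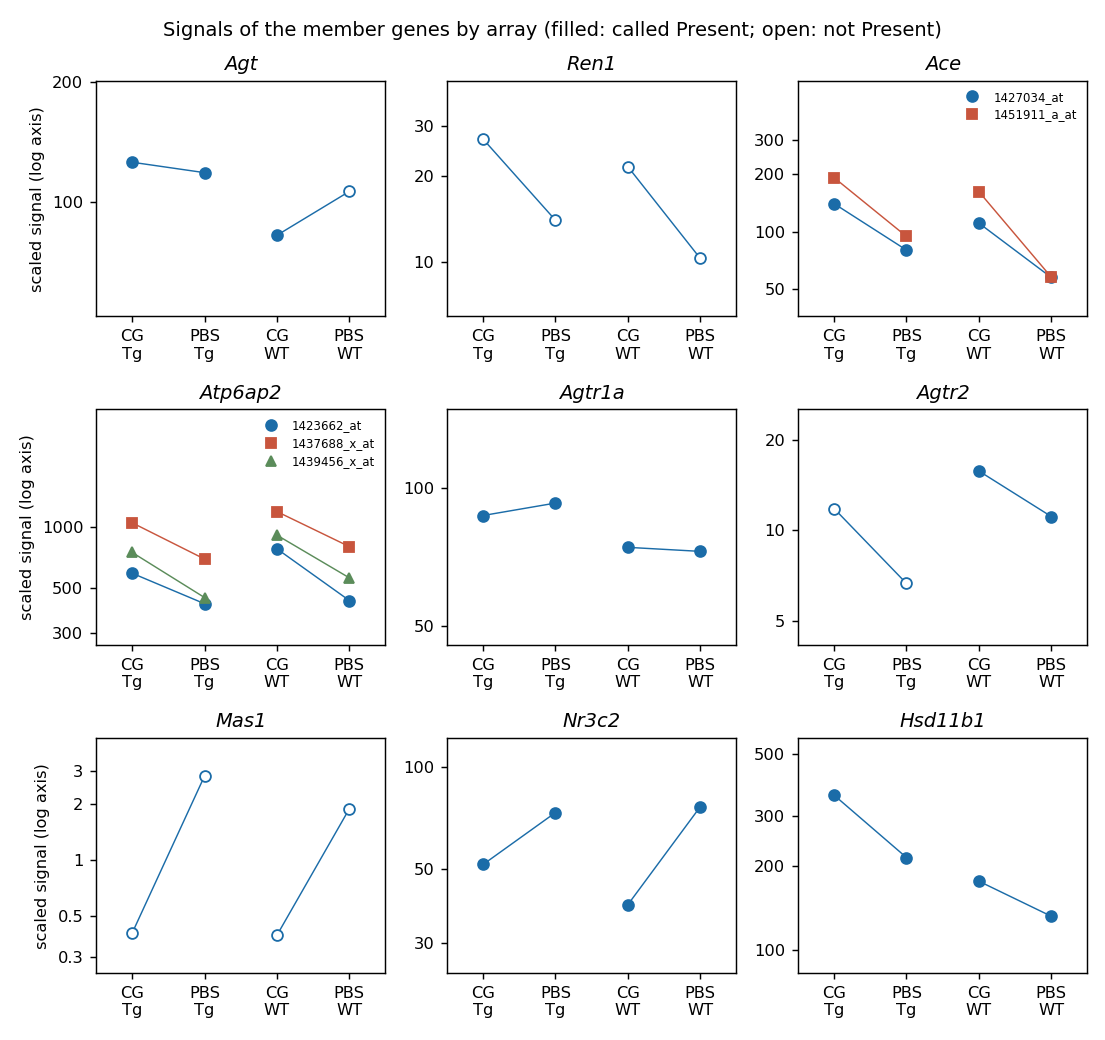
Scaled signal (log axis, arbitrary units, a separate scale in each panel) of each of the 9 genes on the 4 arrays, 1 point per probe set and array. CG is chlorhexidine, PBS is vehicle, Tg is SAP-BNP-Tg; filled points were called Present and lines join the arrays of a genotype, with Ace and Atp6ap2 above and Nr3c2 below their vehicle arrays in both genotypes.

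Angiotensinogen, the precursor of the angiotensins, had signals of 126 and 119 in transgenic peritoneum (chlorhexidine and vehicle) and 82.5 and 106 in WT peritoneum (chlorhexidine and vehicle). Both transgenic arrays were above both WT arrays, and the WT vehicle array was called Marginal, not Present. The log2 difference of chlorhexidine minus vehicle was 0.09 in transgenic and -0.37 in WT peritoneum. The WT value has no fold, because its brighter array was the Marginal one, and with the deposited scaling the transgenic value was -0.12, so no difference in direction between the genotypes is drawn from them. Against the transgenic vehicle array the WT value was -0.52. The transgenic minus WT difference was 0.61 under chlorhexidine and 0.16 under vehicle. Agt is on chromosome 8 (124556587 to 124569706; RefSeq, GRCm38.p6, as for all gene positions here).

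Renin, the protease that starts the cascade and that the kidney secretes, was not detected. Ren1 (chromosome 1, 133350674 to 133360320) had no Present call, being Absent on each array, and read 27.1 and 14.0 in transgenic peritoneum (chlorhexidine and vehicle) and 21.7 and 10.3 in WT peritoneum, with detection p-values of 0.0676 to 0.150. Its numbers were higher on both chlorhexidine arrays, but values under the detection limit have no order and no fold is given. The name of this probe set marks it as able to bind more than 1 sequence.

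Ace, which makes angiotensin II and also breaks down bradykinin, was the gene called higher with chlorhexidine in both genotypes. Its brighter probe set (1451911_a_at) read 192 with chlorhexidine and 94.4 with vehicle in transgenic peritoneum, and 162 with chlorhexidine and 57.8 with vehicle in WT peritoneum, Present on all 4 arrays. Both chlorhexidine arrays were above both vehicle arrays. The difference was 2.03-fold (log2 1.02) in transgenic and 2.80-fold (log2 1.49) in WT peritoneum. These values lay at the 94.3 and 94.8 percentiles of all 12754 genes in their own comparisons. Against the transgenic vehicle array the WT log2 difference was 0.78, under the 2-fold rule, and on that footing no gene of the 9 was called in WT peritoneum. That value mixes treatment with genotype, as Ace under vehicle was higher in transgenic than in WT peritoneum (log2 0.71).

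The other Ace probe set (1427034_at) read 140 with chlorhexidine and 80.1 with vehicle in transgenic peritoneum, and 111 with chlorhexidine and 57.6 with vehicle in WT peritoneum. Its differences had the same sign but were smaller, at 1.75-fold in transgenic and at least 1.92-fold in WT peritoneum, where the vehicle array was called Marginal. For comparison, the SD between probe sets of the same gene was 0.488 on the log2 scale in the transgenic comparison and 0.671 in the WT comparison, over 5938 genes with more than 1 probe set. The call in transgenic peritoneum lay just inside the 2-fold rule and was lost after quantile normalization, after median centring, with the deposited scaling, with a pseudocount of 32, with the mean of both probe sets and with the other probe set alone. The WT call was kept under these settings except with the other probe set alone. Relative to the median of all genes, which takes out any factor common to an array, the Ace difference was 1.02 in transgenic and 1.49 in WT peritoneum, and 0.99 and 1.38 after quantile normalization.

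Ace (chromosome 11, 105967948 to 105989964) has 2 start sites in RefSeq. Their upstream windows are shown because the brighter probe set is described in the files as built on the testis-specific mRNA, and the short testis form of the enzyme is known to start inside the gene. The signal of this probe set was not assigned to a form. Capitals mark matches on either strand to TATAAA (the TATA box), CCAAT (the CCAAT box), GGGCGG (the GC box), TGANTCA (the AP-1 site) or the glucocorticoid response element. The windows hold the 250 bases before each start, at chr11:105967698-105967947 and chr11:105974939-105975188, both on the plus strand of GRCm38.p6.
Ace, first start: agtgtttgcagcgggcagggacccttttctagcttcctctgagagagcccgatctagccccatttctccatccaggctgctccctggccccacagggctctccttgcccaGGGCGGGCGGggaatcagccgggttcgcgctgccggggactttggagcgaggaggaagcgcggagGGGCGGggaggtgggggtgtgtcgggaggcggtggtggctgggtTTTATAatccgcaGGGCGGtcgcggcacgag
Ace, second start: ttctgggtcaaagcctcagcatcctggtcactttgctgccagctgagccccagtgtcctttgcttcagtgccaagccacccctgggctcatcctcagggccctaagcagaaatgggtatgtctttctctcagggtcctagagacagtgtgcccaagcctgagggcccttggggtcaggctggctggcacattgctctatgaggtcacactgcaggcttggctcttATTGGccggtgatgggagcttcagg
The first window held 4 GC boxes, 2 of them overlapping, and 1 TATA box match on the reverse strand, with 67.2% G and C. The second held 1 CCAAT match on the reverse strand, with 58.0% G and C, against a median of 52.4% over 32851 RefSeq windows of this length. GC boxes were found in 32.7%, CCAAT in 33.8% and TATA boxes in 12.4% of those windows, so such matches are common.

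The prorenin receptor, which also serves as an accessory subunit of the vacuolar proton pump, had higher signal with chlorhexidine in both genotypes. Its brightest probe set (1437688_x_at) read 1048 with chlorhexidine and 694 with vehicle in transgenic peritoneum, and 1191 with chlorhexidine and 799 with vehicle in WT peritoneum. The second (1423662_at) read 590 and 417 in transgenic and 779 and 432 in WT peritoneum, in the same order of treatments. The third (1439456_x_at) read 748 and 447 in transgenic and 911 and 560 in WT peritoneum. All 3 probe sets were Present on all 4 arrays, and in each the chlorhexidine arrays were above both vehicle arrays. The log2 differences in transgenic and WT peritoneum were 0.60 and 0.58 for the brightest probe set and 0.74 and 0.70 for the third. For the second, the only one without _x_ in its name, they were unequal, at 0.50 and 0.85. All were under the 2-fold rule. With the deposited scaling the brightest probe set also gave unequal values, 0.39 in transgenic and 0.83 in WT peritoneum. For the brightest probe set, the WT difference against the transgenic vehicle array was 0.78. Atp6ap2 is on the X chromosome (12587759 to 12617051).

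The angiotensin receptors differed in detection. Agtr1a (chromosome 13, 30336356 to 30382867), the main type 1 receptor of rodents, read 87.2 with chlorhexidine and 92.8 with vehicle in transgenic peritoneum, and 74.3 with chlorhexidine and 72.8 with vehicle in WT peritoneum. It was Present on all 4 arrays, which lay close together. The log2 difference with chlorhexidine was -0.09 in transgenic and 0.03 in WT peritoneum, and the WT sign changed with the scaling (-0.08 relative to the median of all genes after quantile normalization). Against the transgenic vehicle array it was -0.32. The transgenic minus WT difference was 0.23 under chlorhexidine and 0.35 under vehicle.

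Agtr2 (X chromosome, 21484624 to 21488833), the type 2 receptor, had low signals of 11.8 and 6.67 in transgenic peritoneum (chlorhexidine and vehicle), both called Marginal, and of 15.7 and 11.1 in WT peritoneum, both called Present. The chlorhexidine signal was 1.42-fold that of vehicle in WT peritoneum (log2 0.50), and no fold is given for transgenic peritoneum because neither array was Present. Against the transgenic vehicle array, called Marginal, the WT log2 difference was 1.24, on signals too dim for a call. Its size thus depended on the vehicle array. Mas1 (chromosome 17, 12838841 to 12868150), the receptor for a shorter angiotensin peptide, was Absent on each array, at signals of 0.39 to 2.81, and no fold is given.

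Nr3c2 (chromosome 8, 76898083 to 77245012), which encodes the mineralocorticoid receptor, was the detected gene with lower signal under chlorhexidine in both genotypes. It read 51.4 with chlorhexidine and 73.3 with vehicle in transgenic peritoneum, and 39.1 with chlorhexidine and 76.3 with vehicle in WT peritoneum, Present on all 4 arrays. Both chlorhexidine arrays were below both vehicle arrays, and the vehicle arrays were close to each other. The difference was 1.43-fold lower (log2 -0.51) in transgenic and 1.95-fold lower (log2 -0.97) in WT peritoneum. The WT value lay just outside the 2-fold rule, at the 7.83 percentile of all genes, and was called lower after quantile normalization (log2 -1.21) and after median centring. Against the transgenic vehicle array the WT value was -0.91. The summed signal of the 7 mesothelial markers was 548 with chlorhexidine and 491 with vehicle in transgenic peritoneum. In WT peritoneum it was 353 with chlorhexidine and 637 with vehicle. The 3 measured adipocyte markers summed to 7850 with chlorhexidine and 10528 with vehicle in transgenic peritoneum. In WT peritoneum they summed to 5858 with chlorhexidine and 10418 with vehicle. The part of these cell types in the Nr3c2 difference was not tested.

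Hsd11b1 (chromosome 1, 193221640 to 193264045), whose product forms corticosterone from its inactive keto form, was higher with chlorhexidine within each genotype and in transgenic mice within each treatment. It read 357 with chlorhexidine and 214 with vehicle in transgenic peritoneum, and 176 with chlorhexidine and 132 with vehicle in WT peritoneum, Present on all 4 arrays. Both transgenic arrays were above both WT arrays. With chlorhexidine the difference was 1.67-fold in transgenic and 1.33-fold in WT peritoneum. Between the genotypes it was 2.03-fold (log2 1.02) under chlorhexidine, at the 97.5 percentile of all genes, and 1.62-fold (log2 0.70) under vehicle. The chlorhexidine value, which does not use the array that stood apart, was 1.05 relative to the median of all genes, and 1.08 after quantile normalization. With the deposited scaling and with a pseudocount of 32 it was under the 2-fold rule. Against the transgenic vehicle array, the WT log2 difference with chlorhexidine was -0.28, so its sign depended on the vehicle array. That value mixes treatment with genotype, as Hsd11b1 was higher in transgenic peritoneum under vehicle too (log2 0.70). Hsd11b1 is also a gene of fat and macrophages. Adipocyte markers (3 measured) summed to 7850 in transgenic and 5858 in WT peritoneum under chlorhexidine, and the 5 macrophage markers to 6684 in transgenic and 7131 in WT peritoneum. Their part in the Hsd11b1 difference was not tested.

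The upstream windows of these corticosteroid genes are shown because their chlorhexidine differences, each against its own genotype's vehicle array, had opposite signs in both genotypes. They hold the 250 bases before the RefSeq start, at chr8:76902080-76902329 on the plus strand for Nr3c2 and chr1:193242361-193242610 on the minus strand for Hsd11b1 (GRCm38.p6). Both lie inside the span annotated for the gene, and capitals mark the same motifs as above.
Nr3c2: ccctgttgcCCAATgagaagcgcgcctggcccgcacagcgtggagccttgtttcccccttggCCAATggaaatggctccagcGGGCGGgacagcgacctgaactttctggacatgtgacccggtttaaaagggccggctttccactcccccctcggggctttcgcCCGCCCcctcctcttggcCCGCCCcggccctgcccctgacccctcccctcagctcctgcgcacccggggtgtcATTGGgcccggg
Hsd11b1: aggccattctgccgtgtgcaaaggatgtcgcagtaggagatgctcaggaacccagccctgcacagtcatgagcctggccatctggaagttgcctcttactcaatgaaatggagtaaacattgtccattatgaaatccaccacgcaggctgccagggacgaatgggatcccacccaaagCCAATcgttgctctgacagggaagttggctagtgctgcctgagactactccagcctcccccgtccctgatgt
The Nr3c2 window held 3 CCAAT and 3 GC box matches on either strand, with 68.4% G and C, and the Hsd11b1 window held 1 CCAAT match, with 54.4% G and C. Windows were found for 8 of the 9 genes, 9 windows in all. None of them held the AP-1 letters, found in 6.75% of all RefSeq windows, or the glucocorticoid response element letters, found in 0.387%. This says only that these letters are not in these windows.

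**Figure D2:**
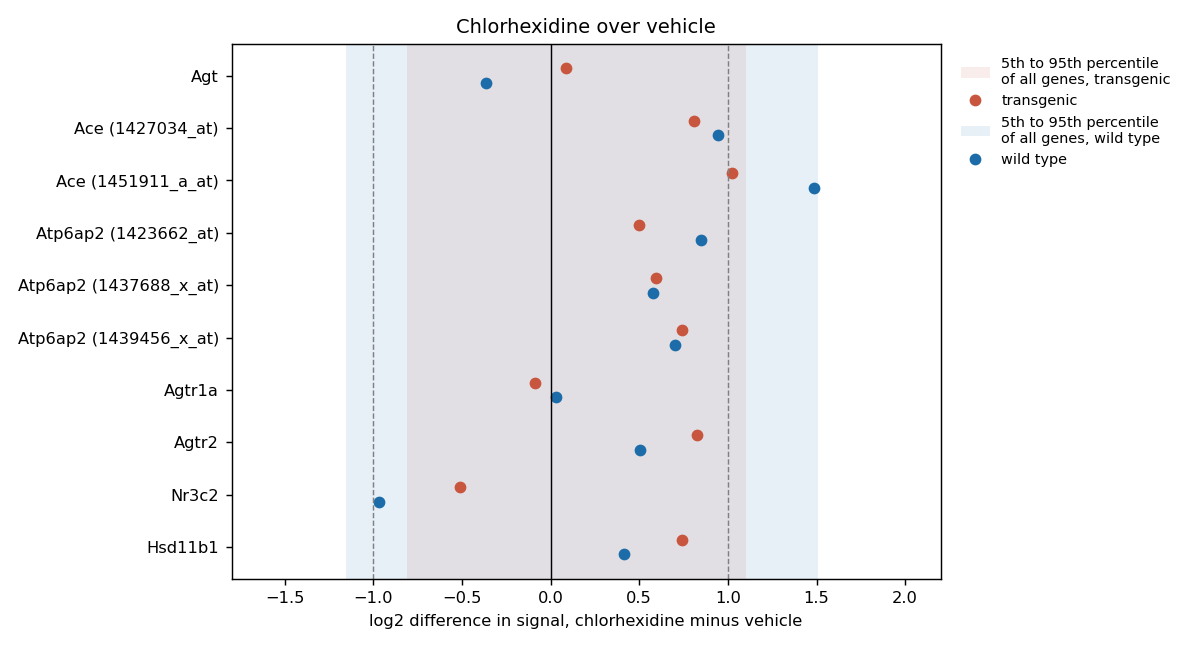
Log2 difference of chlorhexidine minus vehicle for each probe set of the 7 detected genes, in transgenic and WT peritoneum, with dashed lines at the 2-fold rule and shading from the 5th to the 95th percentile of all 12754 genes. The brighter Ace probe set lies past the 2-fold line in both genotypes (1.02 and 1.49), and Nr3c2 lies left of 0 in both (-0.51 and -0.97).

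The 7 detected genes had a median chlorhexidine difference of 0.60 in transgenic and 0.42 in WT peritoneum, where the median of all genes was 0.00 in each. In each genotype 5 of the 7 were above 0 and 2 below. Across genotypes, 4 of the 7 (Ace, Agtr2, Atp6ap2 and Hsd11b1) were higher in both and Nr3c2 was lower in both, while Agt and Agtr1a had opposite signs. Agtr2 in transgenic and Agt in WT peritoneum enter these counts and medians with a brighter array that was Marginal. All 7 differences, that of Ace included, lay between the 5th and the 95th percentile of all genes in each genotype.

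A model with treatment and genotype as additive terms was fitted over the 4 arrays with limma, which leaves 1 residual degree of freedom. For the treatment term it called 0.0941% of the 12754 genes (12 genes) at a Benjamini-Hochberg adjusted p under 0.05, and none of the 7 detected members. Ace had a coefficient of 1.25 (95% interval 0.64 to 1.87, limma adjusted p = 0.0854), higher with chlorhexidine in 2 of 2 genotypes. Nr3c2 had a coefficient of -0.74 (-1.35 to -0.12, limma adjusted p = 0.175), lower in 2 of 2 genotypes. The coefficient of Agtr2 was 0.66 (0.08 to 1.25), with both transgenic arrays Marginal. The intervals of Atp6ap2 (0.59, 0.03 to 1.14) and Hsd11b1 (0.58, -0.01 to 1.16) reached close to 0 or included it. At an unadjusted p under 0.05 the fit gave 4 of the 7 members and 2939 of all genes. The Ace result depended on the filter, the pseudocount and the variance model. Over the alternatives its limma adjusted p ran from 1.68e-05, with an intensity trend in the prior, to 0.187, with the mean of its probe sets. It was 6.35e-05 over genes Present on all 4 arrays. For the genotype term the fit called 0% of genes, 0 of 12754, with 633 genes at an unadjusted p under 0.05. It called 51 genes with the deposited scaling, 16 with a pseudocount of 32, 36 over genes Present on all 4 arrays and 55 with an intensity trend, Hsd11b1 among those 55, and 0 in the other alternatives. Hsd11b1 had the largest genotype coefficient of the members, at 0.86 (0.27 to 1.44, limma adjusted p = 0.871), higher in transgenic mice under 2 of 2 treatments. The additive model counts an unequal response of the genotypes as error. Its p-values and intervals rest on that 1 residual degree of freedom and on a variance prior pooled over all genes. The prior carried 3.76 degrees of freedom, more than the residual, and neither measures a spread between replicate arrays of a group.

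**Figure D3:**
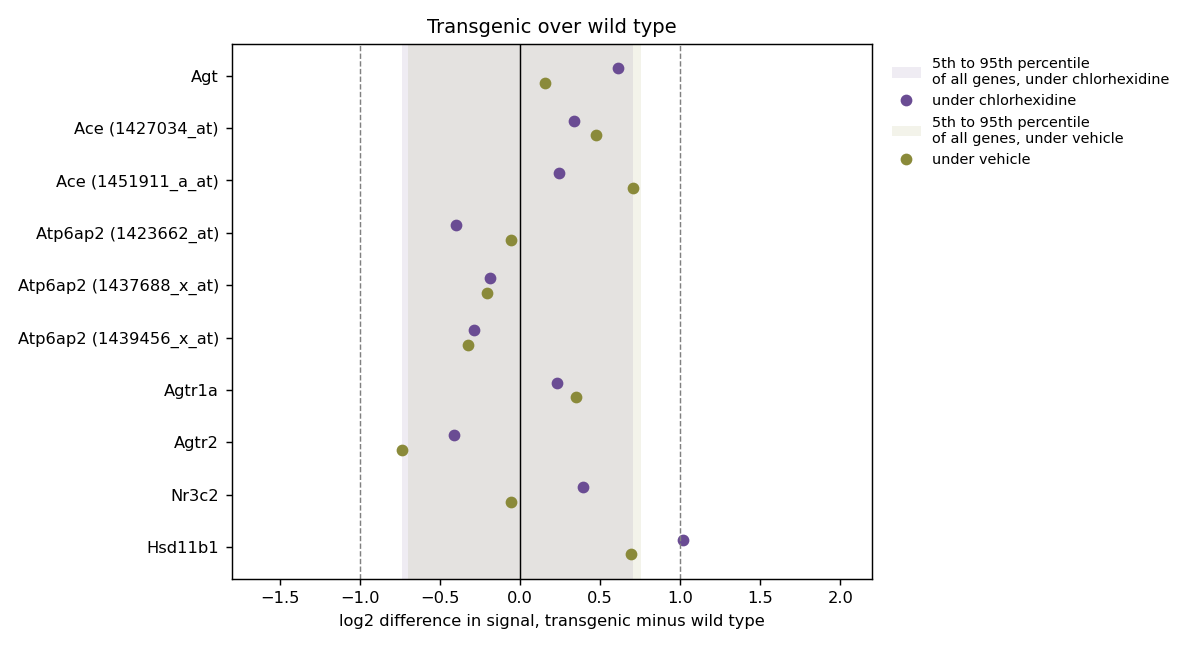
Log2 difference of transgenic minus WT for each probe set of the 7 detected genes, under chlorhexidine and under vehicle, with dashed lines at the 2-fold rule and shading from the 5th to the 95th percentile of all 12754 genes. Hsd11b1 under chlorhexidine (1.02) is the 1 point past the 2-fold line.

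The median transgenic minus WT difference of the 7 genes was 0.24 under chlorhexidine and 0.16 under vehicle, where the medians of all genes were -0.03 and -0.04. Under chlorhexidine 5 of the 7 were above 0, and under vehicle 4. Ace was 1.18-fold higher in transgenic peritoneum under chlorhexidine and 1.63-fold higher under vehicle. Agtr2 was at least 1.33-fold lower in transgenic peritoneum under chlorhexidine and at least 1.67-fold lower under vehicle, since both transgenic arrays were Marginal. Each vehicle value here rests on the WT vehicle array, for which there is no other array of that group.

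For each gene Present on all 4 arrays, the 3 genes with the most similar profile were found among 10405 others, by the distance between log2 signals centred on their mean over 4 arrays. Nearest to Ace were Fbln1, which encodes the matrix protein fibulin-1 (distance 0.10), Nox4, a NADPH oxidase (0.16), and P2ry12, a receptor for ADP (0.16). Fbln1 read 522 with chlorhexidine and 263 with vehicle in transgenic peritoneum, and 431 with chlorhexidine and 168 with vehicle in WT peritoneum. Nearest to Hsd11b1 were Apoc1, an apolipoprotein (0.10), Pappa2, a protease of insulin-like growth factor binding proteins (0.20), and Clec2d (0.22). Apoc1 read 171 with chlorhexidine and 95.2 with vehicle in transgenic peritoneum, and 83.1 with chlorhexidine and 64.4 with vehicle in WT peritoneum. The other genes had closer neighbours, at distances of 0.02 to 0.03. They were Fam13b, Gusb and Baz1a for Atp6ap2, Atmin, Gimap1 and Stac3 for Nr3c2, and C730049O14Rik, Srrd and Txnrd3 for Agtr1a. The distances rest on 4 arrays and are a description.

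The wider pathways were described by 6 lists with 71 genes, the 9 members among them, of which 64 had a probe set and 55 were Present on at least 1 array. With chlorhexidine, 9 of the 55 were called higher and 0 lower in transgenic peritoneum, and 11 higher and 4 lower in WT peritoneum (9 and 4 against the transgenic vehicle array). That is 16.4% of the list in transgenic and 27.3% in WT peritoneum, where 5.21% and 13.2% of all genes were called in either direction. The lists were chosen with earlier results of these data known, so these shares are a description and not a test of the pathways. The list medians were 0.12 in transgenic and 0.29 in WT peritoneum. All 9 genes called higher in transgenic peritoneum were among the 11 of WT peritoneum: Ace, Mcpt4, Anpep, Kng1, Lcn2, Mt2, Cdkn1a, Lgals3 and Ccn2. The WT calls use the vehicle array that stood apart. Against the transgenic vehicle array, the WT differences of Ace (log2 0.78) and Lcn2 (122 over 65.5) were under the 2-fold rule. Among the genes called lower, so were Pdk4 (1899 against 3685) and Atp1b1 (1198 against 1931). Other genes took their place, so the 4 lower on that footing are not the same 4.

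Among the 14 detected genes of the angiotensin precursor and enzyme list, 3 were called higher in each genotype, 0 were called lower in transgenic and 1 in WT peritoneum. Anpep, the aminopeptidase that trims angiotensin peptides, read 81.4 with chlorhexidine and 34.0 with vehicle in transgenic peritoneum, and 87.3 with chlorhexidine and 27.7 with vehicle in WT peritoneum. That is 2.39-fold higher in transgenic and at least 3.15-fold higher in WT peritoneum, where the vehicle array was called Absent. Mcpt4, a mast cell chymase that can form angiotensin II without the converting enzyme, was 2.38-fold higher in transgenic and 2.30-fold higher in WT peritoneum. The 6 mast cell markers, Mcpt4 among them and 5 Present on all 4 arrays, summed to 782 with chlorhexidine and 467 with vehicle in transgenic peritoneum, and to 745 with chlorhexidine and 456 with vehicle in WT peritoneum. The part of mast cells in the Mcpt4 difference was not tested. Mme, the protease neprilysin that degrades angiotensin and natriuretic peptides, was the gene called lower in WT peritoneum (2.12-fold), and was 1.95-fold lower in transgenic peritoneum. The list's median was 0.24 in transgenic and 0.37 in WT peritoneum.

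Of 6 detected angiotensin receptors and partner proteins, none was called in either genotype. Mtus1, which encodes proteins that bind the type 2 receptor, had log2 differences of -0.56 in transgenic and -0.66 in WT peritoneum, and its other probe sets gave -0.47 to -0.21 and -0.42 to 0.00. Of 3 detected kinin genes, 1 was called higher in each genotype. Kng1, the kininogen from which bradykinin is cut, was 4.39-fold higher in transgenic peritoneum (153 with chlorhexidine, 34.7 with vehicle) and 3.72-fold higher in WT peritoneum (172 with chlorhexidine, 46.1 with vehicle). Its second probe set was Absent on both transgenic arrays, so it has no fold there, and was at least 3.46-fold higher in WT peritoneum, where the vehicle array was Absent. Bdkrb1, the inducible kinin receptor, was 1.62-fold higher in transgenic and at least 1.22-fold higher in WT peritoneum, under the rule.

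Of 11 detected corticosteroid receptors and their enzymes, 0 were called in transgenic peritoneum and 2 were called higher in WT peritoneum. Star, which carries cholesterol into mitochondria for steroid synthesis, read 30.1 with chlorhexidine and 26.7 with vehicle in transgenic peritoneum, and 60.2 with chlorhexidine and 19.9 with vehicle in WT peritoneum. That is 1.13-fold and 3.03-fold higher, and no test of the difference between the genotypes was possible with 1 array a group. Hsd11b2, the enzyme that inactivates glucocorticoid, was Present on 1 array, WT with chlorhexidine, where it was at least 2.15-fold higher than with vehicle. Akr1c18, a progesterone-inactivating enzyme, was at least 2.68-fold higher in transgenic peritoneum, where it was Present on the chlorhexidine array only and too dim for a call. The glucocorticoid receptor gene Nr3c1 had 4 probe sets, all with log2 differences below 0 in transgenic peritoneum (-0.61 to -0.16). In WT peritoneum they disagreed (-0.61 to 0.97). The value of 0.97 came from the dimmest probe set, which read 51.8 with chlorhexidine and 26.3 with vehicle in WT peritoneum. On the transgenic vehicle array that probe set read 57.7.

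Among 16 glucocorticoid-induced genes, 3 were called higher in each genotype, and 1 was called lower in WT peritoneum. Lcn2, a neutrophil and epithelial protein that binds iron carriers, was higher by log2 differences of 2.27 in transgenic and 1.81 in WT peritoneum. Its vehicle signal was 65.5 in transgenic and 34.9 in WT peritoneum, so the size of the WT value depended on the vehicle array. Cdkn1a, the cell cycle inhibitor p21, was 2.69-fold higher in transgenic and 4.93-fold higher in WT peritoneum, but its second probe set gave a log2 difference of 0.06 in transgenic peritoneum. Mt2, a metal-binding metallothionein, was 2.18-fold and 2.04-fold higher in the same order of genotypes. The list's median lay below 0, at -0.14 in transgenic and -0.29 in WT peritoneum. Of the 16 genes, 6 were above 0 in transgenic and 5 in WT peritoneum. Pdk4, a kinase that restrains glucose oxidation, was the gene called lower in WT peritoneum (2.15-fold, against 1.13-fold lower in transgenic peritoneum). Against the transgenic vehicle array its WT difference was under the 2-fold rule.

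Of 7 detected targets of the mineralocorticoid receptor, 3 were called higher in each genotype, and 2 were called lower in WT peritoneum. Those higher were Lcn2, the lectin gene Lgals3 (2.18-fold in transgenic, 2.86-fold in WT peritoneum) and Ccn2, a secreted regulator of matrix (2.26-fold and 2.64-fold). Those lower in WT peritoneum were Usp2, a deubiquitinase, and Atp1b1, a subunit of the sodium pump. Usp2 had log2 differences of -0.72 in transgenic and -1.28 in WT peritoneum. Atp1b1 read 1472 with chlorhexidine and 1931 with vehicle in transgenic peritoneum, and 1198 with chlorhexidine and 2396 with vehicle in WT peritoneum. Its WT call lay at the threshold and was not reached against the transgenic vehicle array. The other Atp1b1 probe sets gave log2 differences of -1.06, -0.75 and -0.61 in WT peritoneum. Sgk1, the kinase through which aldosterone acts on sodium transport, had log2 differences of -0.06 in transgenic and -0.47 in WT peritoneum. The 3 subunits of the epithelial sodium channel were Absent on all 4 arrays. Other inputs are known for Lcn2, Lgals3 and Ccn2, and a list's count does not show which receptor acted.

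**Figure D4:**
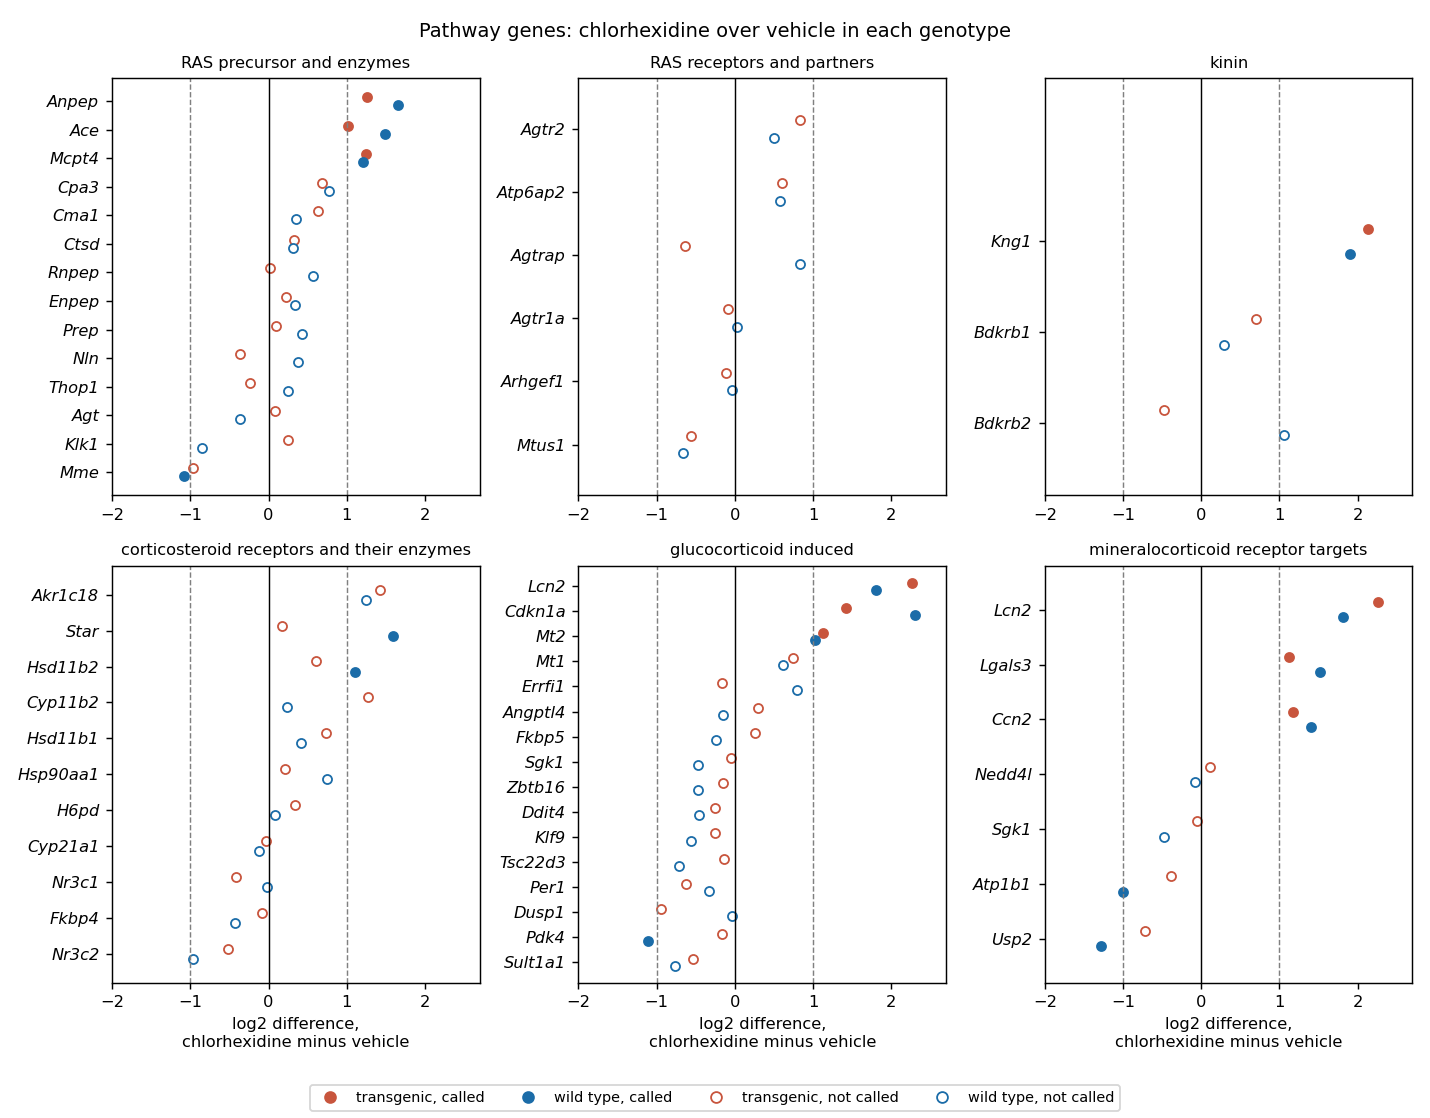
Log2 difference of chlorhexidine minus vehicle for the detected genes of the 6 pathway lists in transgenic and WT peritoneum, ordered within a list by the mean of both, with filled points for genes called by the 2-fold rule and dashed lines at 2-fold. Lcn2 and Sgk1 appear in 2 lists each; 9 genes have filled points on the right in both genotypes and none has filled points on the left in both.

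Between the genotypes, 3 of the 55 genes were called higher and 1 lower in transgenic peritoneum under chlorhexidine, and 0 of 55 under vehicle. That is 7.27% of the list under chlorhexidine and 0% under vehicle, where 1.75% and 1.46% of all genes were called. These shares too are a description. Under chlorhexidine 1 gene was called higher with a pseudocount of 32 or without probe sets named _a_, _s_ or _x_, and 3 were called higher under vehicle with the deposited scaling. Beside Hsd11b1, Lcn2 read 315 in transgenic and 122 in WT peritoneum under chlorhexidine. Klk1, a tissue kallikrein, read 59.1 in transgenic and 23.8 in WT peritoneum under chlorhexidine, and its other probe set was Absent on both WT arrays. Star was the gene called lower, at the values given above. The summed signals of other cell types' markers also differed between the treatments. The 5 fibroblast markers summed to 14785 with chlorhexidine and 9756 with vehicle in transgenic peritoneum, and to 17091 with chlorhexidine and 8999 with vehicle in WT peritoneum. Col1a1, a collagen gene, made up much of that gap, at 4393 with chlorhexidine and 1087 with vehicle in transgenic peritoneum and 5769 with chlorhexidine and 1060 with vehicle in WT peritoneum. The 5 macrophage markers summed to 6684 and 4878 in transgenic and to 7131 and 4745 in WT peritoneum, and the 6 endothelial markers to 878 and 839 in transgenic and to 1064 and 755 in WT peritoneum (chlorhexidine and vehicle in each). The endothelial markers did not move together, as 3 of the 6 were higher with chlorhexidine in transgenic and 4 in WT peritoneum. Endothelium is the known main source of the converting enzyme, and the part of these cell types in the Ace difference was not tested. None of 3 measured kidney markers and 1 of 4 adrenal cortex markers, Star, was Present on all 4 arrays.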

How the data were processed

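Parietal peritoneum was the source of total RNA, which was turned into biotinylated complementary RNA, per the labels' protocols. Each of the 4 groups was read on 1 Affymetrix mouse array. The deposited values are signals, an intensity on a linear scale for each probe set, per the file headers. The authors also deposited a detection call and a detection p-value for each signal. Which algorithm and scaling target produced the signals is not given in the sources used here. Scanner image files were not used here. The series' own value table held the same signals.

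Each array was scaled to a common 2% trimmed mean (factors of 0.877 to 1.17), a floor of 0.1 was applied before log2. Among 45037 probe sets without controls, 34945 had 1 symbol in the platform annotation, 932 several and 9160 none there. A RefSeq table (GRCm38.p6) gave current symbols for 34741. Ren1 was named through the gene identifier in the files' description column. Each gene was represented by its brightest probe set (mean log2 signal over the arrays). A call needed a log2 difference of 1, and on the brighter array a Present call with a signal no lower than the 25th percentile of Present probe sets. Folds against an array without a Present call used the probe set's own signal or that array's lowest Present signal, whichever was higher, and are given as "at least". Single pairs of arrays allow no test, and the number of arrays limits the precision. The additive fit used limma 3.58.1 in R 4.3.3 over 12754 genes with Benjamini-Hochberg adjustment. Its code was run on simulated data with treatment effects far larger than any member's coefficient. That run says nothing about power or error at the sizes reported here.

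The members, lists and tests were chosen with earlier results of these data known. The genes named were the 9 members, the list genes called in both genotypes, the 2 list genes with the largest mean difference in each list, and the 3 most similar profiles. Mme, Star, Hsd11b2, Nr3c1, Pdk4, Usp2, Atp1b1, Klk1, Sgk1 and Col1a1 were named after their values were seen. Genes with no single-symbol probe set in the table used here are not reported. Promoter windows came from a RefSeq table and were searched with Python 3.11.15. Alternatives were other scalings, low-value handling, probe set choices, filters, thresholds and vehicle arrays.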

Additional observations from a re-analysis of the deposited data

Results flagged for a closer look

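For Agt, the chlorhexidine difference was above 0 in transgenic and below 0 in WT peritoneum, with a gap of 0.45 on the log2 scale (transgenic minus WT). The WT value rests on a vehicle array called Marginal, and the transgenic sign changed with the deposited scaling (-0.12). For Agtr1a the signs were also opposite, with a gap of -0.12, and the WT sign changed with the scaling. Each genotype had 1 array per treatment, so neither difference between the genotypes was tested.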

How the results depend on the processing

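Against 80 alternative values for the counts of calls and the model, 42 were within 1.5 times the reported count and 38 were not, and of 98 alternative values for the members' log2 differences 91 stayed within the probe-set spread and 7 did not. The cause was not tested except where the setting itself shows it. Members with 1 probe set keep their value when only the choice of probe sets changes, so those alternatives could not move. A value can also change sign within the probe-set spread, as Agtr1a did in WT peritoneum (0.03, and -0.32 against the transgenic vehicle array). In transgenic peritoneum, where Ace lay at the threshold, 0 members were called with chlorhexidine after quantile normalization, median centring, with the deposited scaling, a pseudocount of 32, probe sets averaged per gene, probe sets with _a_, _s_ or _x_ in their name left out (_a_ marks several transcripts of 1 gene, and this leaves the second Ace probe set) and a 3-fold threshold. In WT peritoneum 2 members (Ace, and Nr3c2 lower) were called after quantile normalization, after median centring and at 1.5-fold, and 0 without those probe sets and at 3-fold. At 1.5-fold 3 members were called in transgenic peritoneum. With the other genotype's vehicle array, 2 members (Ace and Hsd11b1) were called in transgenic and 0 in WT peritoneum. Between the genotypes under chlorhexidine 0 members were called with the deposited scaling, a pseudocount of 32 and at 3-fold, and 2 at 1.5-fold. Under vehicle 2 were called with the deposited scaling and at 1.5-fold.

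Of the pathway genes, 18 were called at 1.5-fold, 2 at 3-fold and 5 without those probe sets in transgenic peritoneum, against 9. In WT peritoneum 25 were called at 1.5-fold, 5 at 3-fold and 9 with a pseudocount of 32, against 15. The treatment term of the limma fit called 0 genes after quantile normalization, with the mean of probe sets and without those so named (2816, 2202 and 2304 at an unadjusted p under 0.05). It called 160 genes after median centring, 722 with the deposited scaling, 2358 with a pseudocount of 32 (3 members), 2228 over genes Present on all 4 arrays (2 members) and 2483 with an intensity trend (3 members), against 12 genes and 0 members.

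The scaling moved the split of all calls with chlorhexidine. In transgenic peritoneum it was 486 higher and 178 lower, and 329 and 320 with the deposited scaling. In WT peritoneum it was 1049 higher and 629 lower, 867 and 748 after quantile normalization, 723 and 1225 after median centring, and 1586 and 318 with the deposited scaling. The median of all genes in WT peritoneum was then -0.11, -0.23 and 0.25. With 1 array per group no array could be left out, and no paired analysis was possible because the labels give no replicate numbers.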
